A study of Homo sapiens with 8 samples.

Results

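Translation factors are the proteins that bring the ribosome to an mRNA, find the start codon and move the ribosome along the coding sequence. All genes whose symbol starts with EIF1 to EIF6 or EEF were taken as members, together with the poly(A) binding proteins PABPC1 and PABPC4 and their partners PAIP1 and PAIP2. Pseudogenes, antisense genes and EIF2AK2 were left out. This gave 72 genes of 57992 in the Molm13 count table, and all 72 were also in the THP1 table of 58174 genes.

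The study asked about PRMT9, an arginine methyltransferase, and the methylation of proteins that regulate RNA translation in acute myeloid leukemia (AML). The RNA libraries described here measure transcript abundance, not protein or methylation. Molm13 and THP1 are human AML lines of the monocytic kind that carry a KMT2A (MLL) fusion. In each line, doxycycline (Dox) induced a control hairpin (shCtrl, genotype labelled WT) or hairpin RNA against PRMT9 (shPRMT9, labelled PRMT9 knockdown), so all 4 groups received Dox. There were 2 libraries per group and 8 in all, made from polyadenylated RNA, with 18720950 to 27356870 counted reads each. The labels do not say whether the 2 libraries of a group came from separate cultures. They number the shPRMT9 libraries 1 and 2, and the study numbers its hairpins in the same way, so these could be repeats with 1 hairpin or 1 library for each of 2 hairpins. Every p-value therefore measures only the spread between these libraries, which may be technical, and that spread was small (fitted biological coefficient of variation 0.0201 in Molm13 and 0.0247 in THP1). The library codes of the THP1 samples contain the letters OCI, which the labels do not explain.

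Read counts of PRMT9 itself in Molm13 were 332 and 289 under shCtrl against 41 and 56 under shPRMT9. In THP1 they were 317 and 352 against 60 and 68. The targeted transcript was lower in every shPRMT9 library than in every control of its line, with log2 fold changes of -2.67 and -2.29. Of 10 myeloid marker genes the summed level was higher in shPRMT9, at 2464 and 2463 against 1595 and 1586 CPM (counts per 1000000 counts of the library) in Molm13, and at 4211 and 4041 against 2816 and 2811 CPM in THP1. Of these, 8 were higher in both shPRMT9 libraries of Molm13 than in both controls, and 7 in THP1. LYZ made up most of the rise in THP1, from 1893 and 1909 to 3128 and 2970 CPM. MPO was lower in the shPRMT9 libraries of both lines (60.8 and 61.1 to 40.2 and 42.4 CPM in Molm13, 8.25 and 6.87 to 4.25 and 4.14 CPM in THP1), as were FCGR1A in Molm13 and CEBPA in THP1. CD14, a marker of mature monocytes, was under 1 CPM in Molm13 and went from 0.938 and 0.877 to 4.57 and 4.86 CPM in THP1. T cell and erythroid markers summed to under 1 CPM, and of the B cell markers MS4A1 was under 1 CPM while PAX5 was at 38.6 to 42.6 CPM in Molm13 and went from 2.50 and 3.14 to 11.7 and 11.0 CPM in THP1. The part of these marker changes in the results below was not tested, and fewer cells of a kind and less RNA per cell cannot be told apart in bulk libraries.

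As background, initiation starts when eIF4F (the cap-binding protein eIF4E, the scaffold eIF4G and the helicase eIF4A) binds the capped end of an mRNA, while poly(A) binding protein holds the tail and touches eIF4G. The small ribosomal subunit arrives with eIF3, with eIF1, eIF1A and eIF5, and with eIF2, which carries the initiator tRNA and is reloaded with GTP by eIF2B. Elongation then runs on eEF1A, which delivers aminoacyl-tRNA, its exchange factor eEF1B, and eEF2, which moves the ribosome by a codon. Many mRNAs of this machinery, elongation factors above all, start with a run of pyrimidines, the 5′ terminal oligopyrimidine (TOP) motif, through which mTORC1 and LARP1 control their translation and stability.

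Members took a larger share of all counts after knockdown in Molm13 and a smaller one in THP1. They made up 2.62% and 2.63% of counts in the shCtrl libraries of Molm13 and 2.81% in both shPRMT9 libraries. In THP1 the shares were 2.27% and 2.26% with shCtrl and 2.08% and 2.07% with shPRMT9. The elongation factors summed to 8602 and 8832 CPM with shCtrl and 11486 and 11468 CPM with shPRMT9 in Molm13, and to 6809 and 6644 CPM with shCtrl and 5953 and 5977 CPM with shPRMT9 in THP1. The 4 poly(A) genes summed to 4331 and 4216 CPM with shCtrl and 3488 and 3516 CPM with shPRMT9 in THP1, and to between 3953 and 4135 CPM in all Molm13 libraries. In absolute CPM no other role group of THP1 shifted as far as these, and none of Molm13 as far as its elongation factors. Relative to its own level the eIF5A group of Molm13 shifted further, from 354 and 359 to 236 and 244 CPM.

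Of the 66 members with enough counts to be tested in Molm13, 19 rose, 35 fell and 12 did not pass the test (adjusted p below 0.05). Over all 16446 genes tested, 33.4% rose and 33.5% fell, so the share of members that rose (28.8%) was below and the share that fell (53.0%) above that of all genes. The median log2 fold change was -0.13 over the members and close to 0 over all genes. In 62 of the 66 the shPRMT9 and shCtrl libraries did not overlap, where 81.9% of all genes tested did not. With the study's rule for differentially expressed genes (DEGs; also a fold change above 1.5 and an RPKM, reads scaled by exon length and library size, above 1 in a library), 1 member rose and 7 fell, against 11.4% and 11.3% of all genes tested. In THP1, 10 of 65 tested members rose, 19 fell and 36 did not pass. Over the 16294 genes tested there, 19.0% rose and 18.6% fell. The groups of 52 members did not overlap in THP1 (66.0% of all genes tested), and the only DEG was EEF1A2 (6.22% of all genes tested were DEGs). The 6 members without a test in either line (EEF1G, EIF3CL, EIF4E1B, EIF4EBP3 and the transcripts EEF1E1-BLOC1S5 and EIF2B5-IT1) had almost no counts, and EIF2S3L had them in Molm13 alone.

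**Figure D1:**
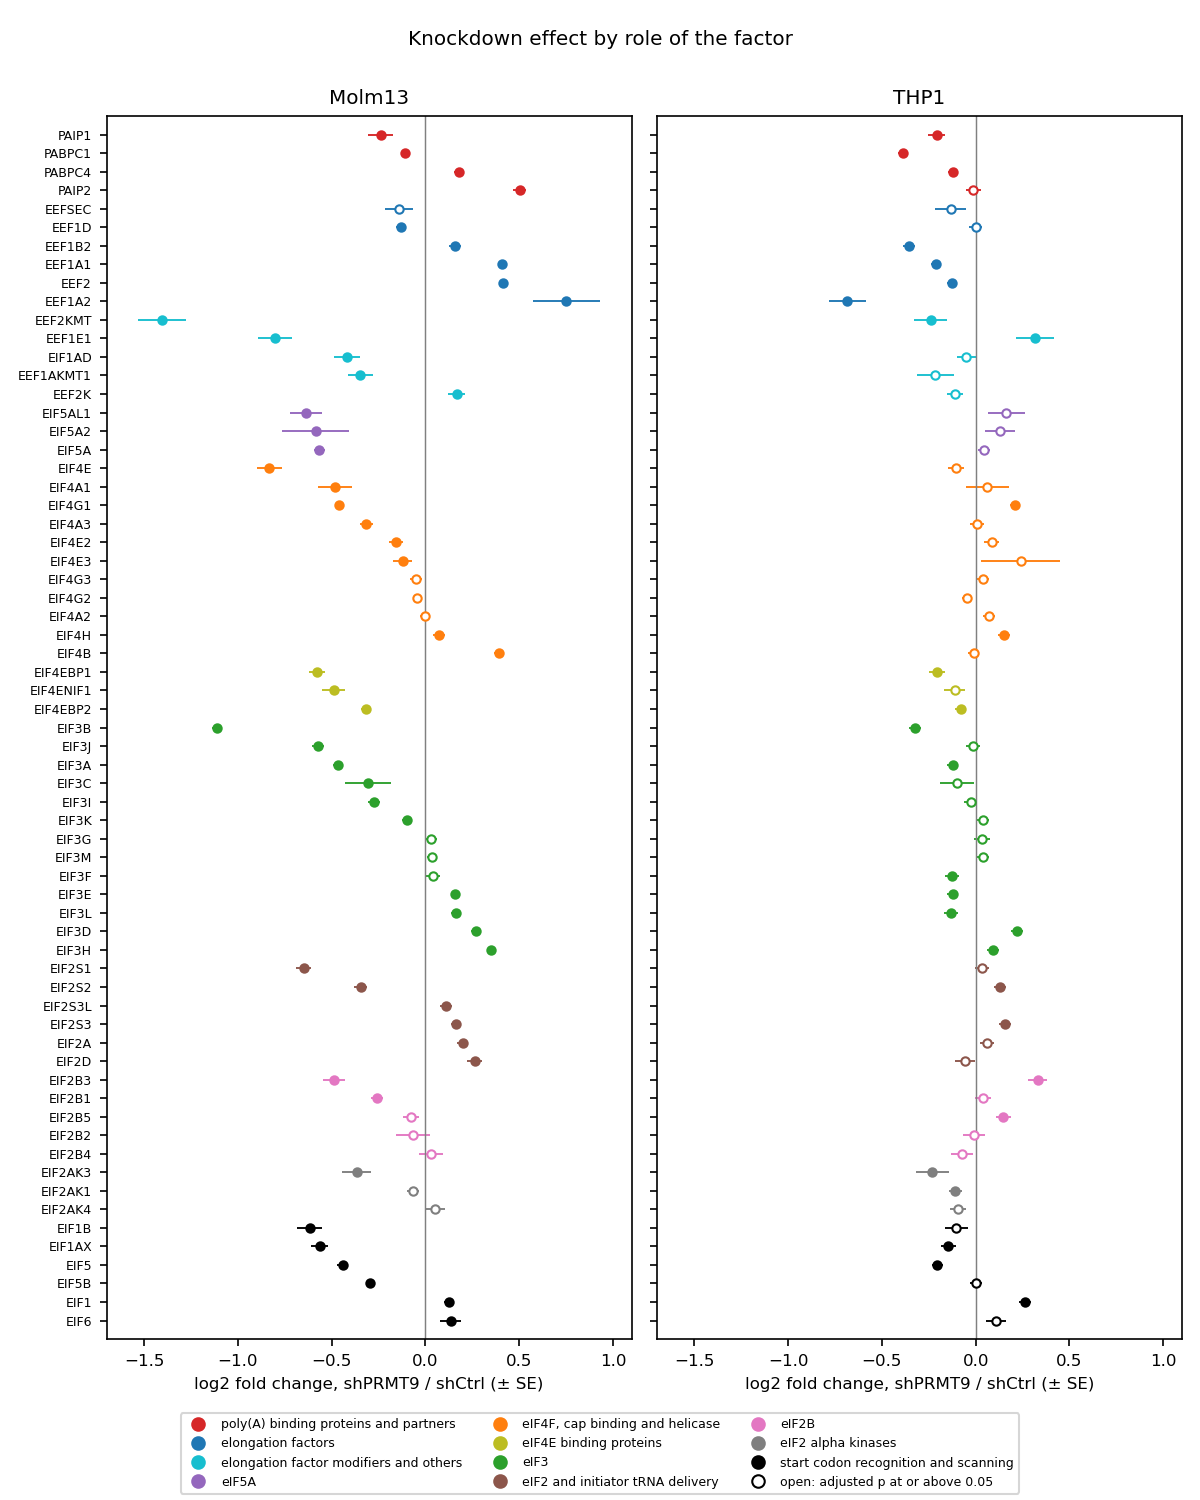
Log2 fold change (shPRMT9 over shCtrl, ± SE of the fit, 2 libraries per group) of 65 members, grouped by role, in Molm13 (left) and THP1 (right); filled points passed the test and open points did not. EEF1B2, EEF1A1, EEF2 and EEF1A2 lie right of 0 in Molm13 and left of 0 in THP1, EEF1D and EEFSEC lie left of 0 in Molm13, and most initiation factors that moved in Molm13 lie left of 0.

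Most elongation factors moved in opposite directions in the 2 lines. Of 6 tested in each, 4 rose and 1 fell in Molm13 (median log2 fold change 0.28), and none rose and 4 fell in THP1 (median -0.17). EEF2, the translocase and the most abundant member per length in Molm13, was at 6687 and 6900 CPM in the shCtrl and at 9083 and 9040 CPM in the shPRMT9 libraries of Molm13. THP1 gave 2663 and 2551 CPM with shCtrl and 2362 and 2417 CPM with shPRMT9. All shPRMT9 libraries of Molm13 were above, and all those of THP1 below, their controls. The log2 fold change of EEF2 was 0.42 ± 0.018 (SE; adjusted p = 4.94e-24) in Molm13 and -0.13 ± 0.028 (adjusted p = 0.00057) in THP1. The test of the difference itself, THP1 minus Molm13, gave -0.53 ± 0.032 (adjusted p = 2.12e-27). Of all genes tested for that difference, 42.2% passed.

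EEF1A1, which delivers aminoacyl-tRNA to the ribosome, was at 1484 and 1503 CPM in shCtrl and 1972 and 1996 CPM in shPRMT9 of Molm13. In THP1 it was at 3512 and 3479 CPM with shCtrl and 3048 and 2996 CPM with shPRMT9. The groups did not overlap in either line, and the log2 fold changes were 0.41 ± 0.021 and -0.21 ± 0.026, with a difference of -0.61 ± 0.033 (adjusted p = 1.95e-30). EEF1B2, a subunit of the exchange factor that reloads eEF1A with GTP, moved likewise: 184 and 172 CPM became 198 and 199 CPM in Molm13 (log2 fold change 0.16 ± 0.032), and 290 and 283 CPM became 224 and 223 CPM in THP1 (-0.36 ± 0.033). The difference for EEF1B2 was -0.50 ± 0.046.

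EEF1A2, the close copy of EEF1A1 that is best known from muscle and neurons, was at low levels. It had 2.50 and 3.07 CPM with shCtrl and 4.97 and 4.42 CPM with shPRMT9 in Molm13, and 14.4 and 13.1 against 8.78 and 8.34 CPM in THP1. It was the only member called in opposite directions with a fold change above 1.5 in both lines (0.75 ± 0.18 and -0.69 ± 0.099), and its difference was -1.42 ± 0.20 (adjusted p = 3.39e-09). With DESeq2 its rise in Molm13 had an adjusted p of 0.0525. EEF1D, another exchange factor subunit, fell in Molm13 by 0.13 ± 0.029 on the log2 scale, and its value in THP1 was -0.0011 ± 0.034 (adjusted p = 0.983). EEFSEC, the factor for selenocysteine, did not pass in either line (-0.14 ± 0.077 and -0.13 ± 0.084).

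Of 5 genes in a mixed group of elongation factor enzymes and others, 1 rose and 4 fell in Molm13, and 1 rose and 1 fell in THP1. The group includes EIF1AD, which bears an initiation factor name. It fell in Molm13 (-0.42 ± 0.069) and did not pass in THP1 (-0.050 ± 0.049). EEF2K, the kinase that inhibits eEF2, rose in Molm13 (0.17 ± 0.045) and had a value of -0.11 ± 0.044 in THP1 (adjusted p = 0.0502). Its difference of -0.26 ± 0.064 passed (adjusted p = 0.000304), on the same side as those of EEF1A1 and EEF2. EEF2KMT, the lysine methyltransferase of eEF2, showed the largest fall of any tested member in Molm13, from 11.2 and 14.4 CPM with shCtrl to 4.65 and 4.98 CPM with shPRMT9. Its log2 fold change was -1.40 ± 0.13 (adjusted p = 3.4e-13), against -0.24 ± 0.087 in THP1 (15.6 and 15.8 to 12.6 and 14.0 CPM). EEF2KMT shares 25.7% of its 50-base words with other genes, a pseudogene most of all, and 29.3% of its exon length with ALG1 on the other strand. Without THP1 shCtrl replicate 1, shCtrl replicate 2 or shPRMT9 replicate 1 its THP1 call was lost (-0.25, -0.24 and -0.17). With DESeq2 that call was lost as well (adjusted p = 0.237). EEF1AKMT1, which methylates eEF1A, fell in Molm13 (-0.35 ± 0.068).

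EEF1E1 bears an elongation factor name but encodes a scaffold of the complex of tRNA synthetases. It fell from 18.2 and 18.5 to 10.7 and 10.4 CPM in Molm13 (-0.80 ± 0.089) and rose from 9.06 and 9.29 to 11.7 and 11.1 CPM in THP1 (0.32 ± 0.100), the reverse of EEF1A1 and EEF2. The difference was 1.13 ± 0.14 (adjusted p = 2.1e-11). The THP1 rise of EEF1E1 was lost without THP1 shCtrl replicate 1 (adjusted p = 0.0601) or shPRMT9 replicate 1 (adjusted p = 0.0766), and with DESeq2 (adjusted p = 0.184).

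**Figure D2:**
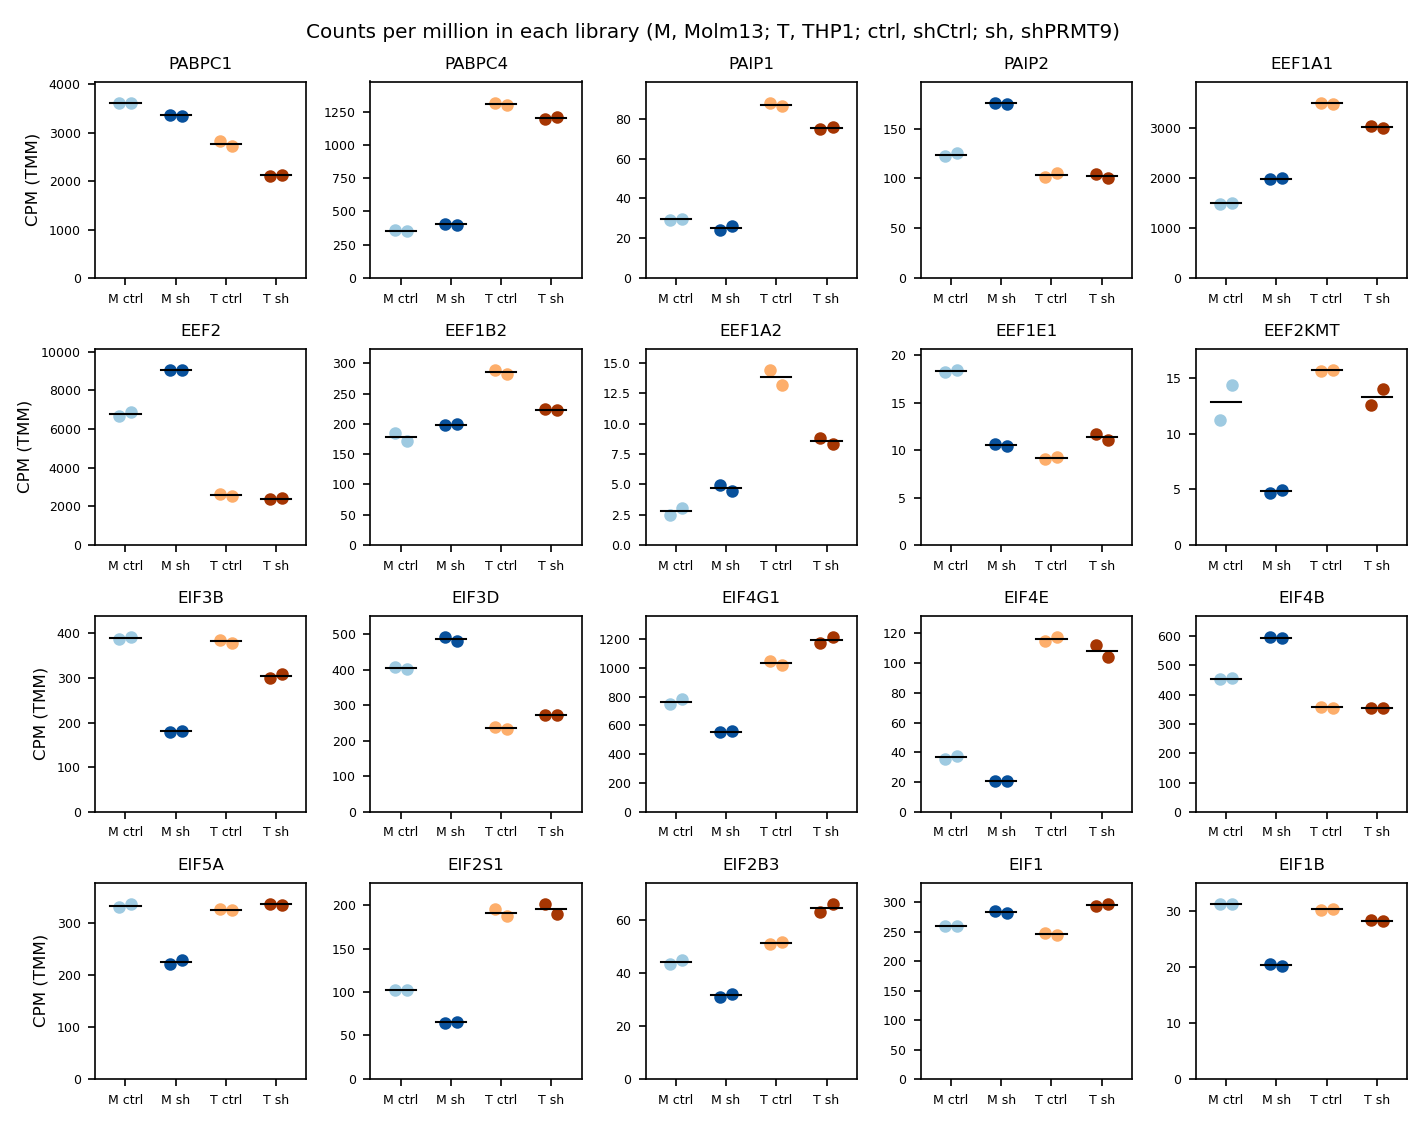
CPM (after TMM scaling within each line) of 20 members in each of the 8 libraries; points are libraries, black bars the mean of 2, and each axis starts at 0. EEF1A1, EEF2 and EEF1B2 are higher with shPRMT9 in Molm13 and lower in THP1, while EIF4G1, EIF2B3 and EEF1E1 go the other way.

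The poly(A) binding proteins and their partners did not move as a set: in Molm13 PABPC4 and PAIP2 rose and PABPC1 and PAIP1 fell, whereas in THP1 PABPC1, PABPC4 and PAIP1 fell and PAIP2 did not pass. PABPC1, the main cytoplasmic poly(A) binding protein, was at 3617 and 3625 CPM with shCtrl and 3374 and 3351 CPM with shPRMT9 in Molm13. In THP1 it was at 2822 and 2726 CPM with shCtrl and 2116 and 2127 CPM with shPRMT9. It was lower in every shPRMT9 library, by 0.11 ± 0.019 on the log2 scale in Molm13 (adjusted p = 3.49e-06) and by 0.39 ± 0.027 in THP1 (adjusted p = 2.23e-12). The fall was larger in THP1, with a difference of -0.27 ± 0.032 (adjusted p = 8.55e-12).

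PABPC4, a second cytoplasmic poly(A) binding protein, rose from 358 and 355 to 406 and 401 CPM in Molm13 (0.18 ± 0.025) and fell from 1319 and 1298 to 1192 and 1213 CPM in THP1 (-0.12 ± 0.027). Its difference was -0.29 ± 0.037. PAIP2, which displaces PABPC1 from the tail and represses translation, was at 122 and 125 CPM with shCtrl and 176 and 175 CPM with shPRMT9 in Molm13, among the largest rises of all members (0.50 ± 0.033, adjusted p = 1.03e-17). In THP1 its libraries overlapped (102 and 105 against 105 and 100 CPM) and the value was -0.013 ± 0.042 (adjusted p = 0.842). The difference of PAIP2 was -0.50 ± 0.053. PAIP1, the partner that stimulates translation, fell in both lines (29.1 and 29.9 to 23.9 and 25.9 CPM, -0.24 ± 0.068, and 88.3 and 86.3 to 75.0 and 76.1 CPM, -0.21 ± 0.044), and the difference of 0.043 ± 0.081 did not pass (adjusted p = 0.753). The Molm13 fall of PAIP1 was lost without Molm13 shPRMT9 replicate 1 (adjusted p = 0.082) and with DESeq2 (adjusted p = 0.0793).

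Among 14 other poly(A) binding and tail genes, 3 of 12 tested rose and 5 fell in Molm13, and 4 of 13 rose and 5 fell in THP1. Over all genes tested, 33.4% rose and 33.5% fell in Molm13, and 19.0% rose and 18.6% fell in THP1. PABPN1, the nuclear poly(A) binding protein, fell in both (-0.61 ± 0.041 and -0.24 ± 0.042). PAN2, a deadenylase subunit, rose in Molm13 (0.50 ± 0.045) and fell in THP1 (-0.30 ± 0.066). LARP4, which binds poly(A) and protects tails, did the reverse (-0.70 ± 0.043 and 0.43 ± 0.048). LARP1, the TOP mRNA binding protein, fell in Molm13 by 0.62 ± 0.028 and was at -0.026 ± 0.030 in THP1 (adjusted p = 0.535).

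Sequences at the transcription start were compared because the members include well known TOP mRNAs. Of 11 tested on a list of such members, 6 rose and 3 fell in Molm13 (median 0.16), beside 33.4% and 33.5% of all genes tested. Those that fell were EIF3A, EEF1D and PABPC1. In THP1 1 rose and 7 fell (median -0.12), beside 19.0% and 18.6% of all genes tested. RefSeq promoter windows of GRCh38.p14 (250 bases before to 50 after the start) were at hand for 55 of the 72 members. A pyrimidine run was called where a C followed by at least 4 bases that are C or T began within 10 bases of the start. The search was on the strand that reads as the RNA does. The starts of 6 members that rose in Molm13 are given with 10 bases before and 20 from the start, 5′ to 3′. Capitals mark the run from the match nearest the start.
EEF1A1, chr6:73521013-73521042, minus strand: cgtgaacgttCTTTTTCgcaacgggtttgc
EEF2, chr19:3985444-3985473, minus strand: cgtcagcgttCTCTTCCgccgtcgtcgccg
EEF1B2, chr2:206159885-206159914, plus strand: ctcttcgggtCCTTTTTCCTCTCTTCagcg
EIF4B, chr12:53006446-53006475, plus strand: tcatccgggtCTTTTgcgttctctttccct
EIF3D, chr22:36529147-36529176, minus strand: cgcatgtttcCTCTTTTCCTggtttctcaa
PAIP2, chr5:139342464-139342493, plus strand: cggagggactggcgggCTCTTggcgtcttg

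In the first 5 of these the marked run begins at the annotated start itself, and in PAIP2 it begins 6 bases after it. The base just before the start of EIF3D is also a C, so by the same rule a run begins there too. A run was found in 33.5% of all windows and in 38.4% of all genes with a window. It was found in all 13 members with a window that rose in Molm13, in 9 of 28 that fell (32.1%) and in 6 of 10 that did not pass. Among all genes with a window the shares were 48.5% of those that rose in Molm13, 37.8% of those that fell and 39.5% of those that did not pass. The median log2 fold change in Molm13 was 0.038 over the 28 tested members with a run and -0.42 over the 23 without, beside 0.055 and -0.054 over all genes. In THP1 the medians of the members were 0.013 with and -0.027 without a run, beside -0.0097 and -0.00047 over all genes. A run was present in 6 of 8 members that rose in THP1 and in 6 of 10 that fell, beside 42.3% and 45.0% of all genes that rose and fell there. A match is a description of the letters in the window. No window was at hand for 6 of the 19 members that rose in Molm13, EEF1A2 and EIF3H among them. Members that fell there also lacked one, among them EIF3A, EEF1D and PABPC1 of the TOP list.

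**Figure D3:**
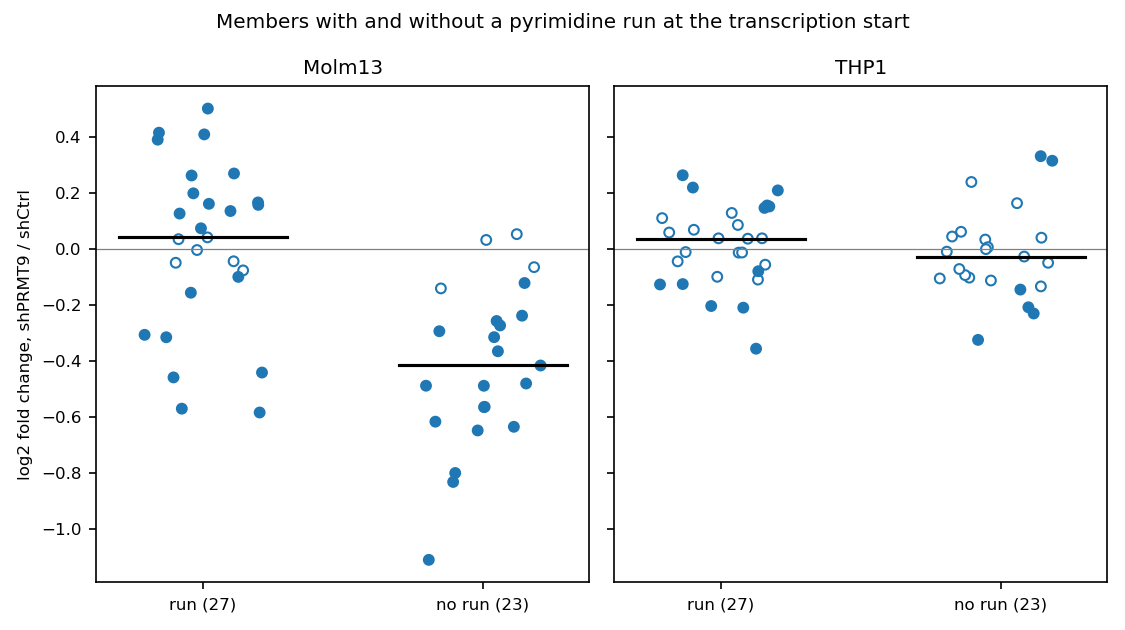
Log2 fold change (shPRMT9 over shCtrl) of 50 members with a promoter window, split by a pyrimidine run at the start (27 with, 23 without), in Molm13 (left) and THP1 (right); filled points passed the test, and bars are medians. In Molm13 no member without a run rose, and in THP1 the 2 sets overlap.

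A second motif, the E-box CACGTG (its own reverse complement, so 1 search covers both strands), is the hexamer that MYC and related factors bind. It was in 7.26% of windows, in 8.77% of genes with a window and in 14 of the 55 members (25.5%). Of the members, 4 of 13 that rose in Molm13 and 7 of 28 that fell had it, beside 11.9% and 14.3% of all genes that rose and fell. Those that rose with it were EEF2K, EIF4B, EIF4H and PAIP2, and their stretches are not given. The stretches of 3 members that fell in Molm13 are given with each match in capitals and 25 bases on either side.
EIF1B, chr3:40309628-40309683, plus strand: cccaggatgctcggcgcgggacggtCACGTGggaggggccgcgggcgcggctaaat
EIF4A3, chr17:80147219-80147274, minus strand: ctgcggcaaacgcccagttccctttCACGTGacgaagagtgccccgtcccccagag
EIF5A2, chr3:170908769-170908849, minus strand: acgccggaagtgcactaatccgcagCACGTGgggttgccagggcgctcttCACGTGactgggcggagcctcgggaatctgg

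Most of the eIF4F, cap-binding and helicase genes that moved in Molm13 fell. Of 11 tested, 6 fell and 2 rose there, and in THP1 none fell and 2 rose. The falls in Molm13 include that of EIF4E3, lost without some libraries, and that of EIF4A1, which is uncertain, both given below. EIF4E, the cap-binding protein, was at 35.9 and 37.8 CPM with shCtrl and 20.9 and 20.4 CPM with shPRMT9 in Molm13 (-0.83 ± 0.067, adjusted p = 8.48e-15). THP1 held more of it, 115 and 118 CPM with shCtrl and 112 and 104 CPM with shPRMT9, and the value of -0.11 ± 0.042 had an adjusted p of 0.0507. That THP1 value passed without THP1 shPRMT9 replicate 1 (-0.16). In edgeR it also passed with scaling by library size alone (-0.13, adjusted p = 0.0145) or by upper quartile (-0.13, adjusted p = 0.0186). The same held in the fit of all 8 libraries (-0.10, adjusted p = 0.047) and with copies added to their parent gene (-0.11, adjusted p = 0.0491). The difference of EIF4E was 0.74 ± 0.079.

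EIF4G1, the scaffold of eIF4F, went in opposite directions. It was at 747 and 784 CPM with shCtrl and 553 and 560 CPM with shPRMT9 in Molm13, and at 1048 and 1017 against 1171 and 1216 CPM in THP1. The log2 fold changes were -0.46 ± 0.025 and 0.21 ± 0.029, and the difference of 0.68 ± 0.037 had the third smallest adjusted p of the members (3.76e-30). Its paralogues EIF4G2 and EIF4G3 were within 0.05 of 0 on the log2 scale in both lines; EIF4G2 passed in Molm13 without shCtrl replicate 1 (-0.07, adjusted p = 0.00153).

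EIF4B, which stimulates the helicase eIF4A, was the main exception, at 452 and 456 CPM with shCtrl and 598 and 592 CPM with shPRMT9 in Molm13 (0.39 ± 0.024) and -0.011 ± 0.031 in THP1. EIF4E2, the cap-binding repressor also known as 4EHP, fell in Molm13 (-0.16 ± 0.037) and was at 0.086 ± 0.041 in THP1 (adjusted p = 0.101, and 0.0485 without THP1 shCtrl replicate 1, where the value was 0.13). EIF4E3 was expressed in Molm13 (52 to 59 CPM) and near absent in THP1 (1.91 to 3.26 CPM). The call on its Molm13 value of -0.12 ± 0.051 was lost without shCtrl replicate 2 (-0.0625), shPRMT9 replicate 1 (-0.10) or shPRMT9 replicate 2 (-0.12). It was also lost with DESeq2 (adjusted p = 0.223), and in edgeR with upper quartile (adjusted p = 0.187) or the fit of all 8 libraries (adjusted p = 0.0712). The THP1 value of EIF4E3, 0.24 ± 0.21, and its difference passed without THP1 shCtrl replicate 2 (0.64, adjusted p = 0.0448, and 0.74, adjusted p = 0.0061). EIF4A2 did not pass in either line (-0.0039 ± 0.025 and 0.069 ± 0.032). EIF4A1, normally an abundant helicase, had only 8.20 to 17.7 CPM in the 8 libraries: 48.6% of its exon length overlaps other genes on the same strand, and rows of its pseudogenes held 93.9% of the counts of gene and copies in Molm13 and 11.3% in THP1. Its value in Molm13 (-0.48 ± 0.089) is therefore uncertain, and what lowers its counts was not tested.

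The eIF4E binding proteins, which hold eIF4E away from eIF4G, fell as well. EIF4EBP1 (119 and 109 to 76.3 and 76.8 CPM), EIF4EBP2 (382 and 385 to 307 and 309 CPM) and EIF4ENIF1, the eIF4E transporter (36.4 and 37.7 to 26.4 and 26.4 CPM), all fell in Molm13, with log2 fold changes of -0.58, -0.32 and -0.49. In THP1 the first 2 fell by less (-0.21 ± 0.044 and -0.080 ± 0.030). All 3 differences were above 0, from 0.25 to 0.39, and passed.

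The eIF3 complex split by subunit. In Molm13, 6 of 13 tested subunits fell and 4 rose (median 0.032). In THP1, 5 fell and 2 rose (median -0.027). EIF3B, the RNA-binding scaffold of the core, was at 387 and 393 CPM with shCtrl and 180 and 181 CPM with shPRMT9 in Molm13. It also fell in THP1, from 385 and 378 to 300 and 309 CPM. The log2 fold changes of EIF3B were -1.11 ± 0.028 (adjusted p = 5.78e-33) and -0.33 ± 0.031 (adjusted p = 1.88e-09), and the difference of 0.80 ± 0.042 had the smallest adjusted p of all members (5.05e-31).

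EIF3A, the other large core subunit, fell from 1145 and 1198 to 849 and 846 CPM in Molm13 (-0.47 ± 0.023) and from 750 and 738 to 681 and 686 CPM in THP1 (-0.12 ± 0.028). EIF3J, a loosely bound subunit, fell in Molm13 (-0.57 ± 0.033), and EIF3I fell by 0.27 ± 0.030. In contrast EIF3H rose from 722 and 719 to 910 and 926 CPM (0.35 ± 0.023), and EIF3D, the subunit that can bind the cap, rose from 407 and 403 to 494 and 483 CPM (0.27 ± 0.025). EIF3D also rose in THP1 (239 and 233 to 274 and 274 CPM, 0.22 ± 0.033), with a difference of -0.037 ± 0.041 (adjusted p = 0.516). EIF3H passed in THP1 at 0.093 ± 0.031, a call lost without THP1 shCtrl replicate 2 (0.072) or shPRMT9 replicate 1 (0.083). It was also lost with DESeq2 (adjusted p = 0.0504), and in edgeR with library size alone (adjusted p = 0.0771) or upper quartile (adjusted p = 0.0605). EIF3E and EIF3L rose in Molm13 (0.16 ± 0.022 and 0.16 ± 0.027) and fell in THP1 (-0.12 ± 0.030 and -0.13 ± 0.037), with 41.1% of the exon length of EIF3L overlapped by another gene on its strand. EIF3C, at 6.52 to 13.5 CPM, shares 45.4% of its 50-base words with other genes, its copy EIF3CL most of all, and is uncertain.

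All 3 eIF5A genes fell in Molm13 and did not pass in THP1. EIF5A, which helps ribosomes through proline-rich stretches, was at 329 and 335 CPM with shCtrl and 220 and 228 CPM with shPRMT9 in Molm13 (-0.57 ± 0.028), and between 323 and 336 CPM in all THP1 libraries (0.044 ± 0.031). The difference was 0.62 ± 0.042 (adjusted p = 4.39e-24). EIF5A2, its copy with a narrow tissue range, had 4.26 and 4.45 CPM with shCtrl and 2.67 and 3.10 CPM with shPRMT9 in Molm13 (-0.58 ± 0.18) and 19.9 to 25.1 CPM in THP1. Its Molm13 call was lost without shPRMT9 replicate 1 (adjusted p = 0.0614) and with DESeq2 (0.13). Its THP1 value of 0.13 passed without THP1 shCtrl replicate 1 (0.25, adjusted p = 0.0354) or shPRMT9 replicate 2 (0.22, adjusted p = 0.039). EIF5AL1, an intronless copy that shares 15.4% of its 50-base words with other genes, EIF5A most of all, moved with EIF5A (-0.64 ± 0.084 in Molm13).

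The subunits of eIF2 did not change together. EIF2S1, the alpha subunit that the stress kinases phosphorylate, fell in Molm13 from 102.3 and 102.2 to 64.3 and 66.1 CPM (-0.65 ± 0.042, adjusted p = 4.81e-18), and its THP1 libraries overlapped (195 and 188 against 202 and 190 CPM). EIF2S2, the beta subunit, fell in Molm13 (-0.35 ± 0.036) and rose in THP1 (0.13 ± 0.033). EIF2S3, the gamma subunit, rose in both (0.16 ± 0.025 and 0.16 ± 0.032), and its difference of 0.0073 ± 0.041 did not pass. The alternative initiator tRNA carriers EIF2A and EIF2D rose in Molm13 (0.20 ± 0.028 and 0.26 ± 0.042).

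In eIF2B, the exchange factor of eIF2, EIF2B3 (the gamma subunit) fell in Molm13 from 43.4 and 45.0 to 30.9 and 32.1 CPM (-0.49 ± 0.058) and rose in THP1 from 50.8 and 51.7 to 63.0 and 66.2 CPM (0.33 ± 0.050), which was the largest rise of any member in THP1. Its difference was 0.83 ± 0.079. EIF2B1 fell in Molm13 (-0.26 ± 0.033), and the catalytic subunit EIF2B5 rose in THP1 (0.15 ± 0.041). Of the stress kinases, EIF2AK3 (PERK) fell in Molm13 (-0.37 ± 0.078). In THP1 it was at 16.3 and 15.8 CPM with shCtrl and 14.7 and 12.6 CPM with shPRMT9 (-0.23 ± 0.089, adjusted p = 0.0423). That call was lost without shCtrl replicate 1 (-0.21), shCtrl replicate 2 (-0.25) or shPRMT9 replicate 2 (-0.12). It was also lost with DESeq2 (adjusted p = 0.264) and in edgeR without the count filter (adjusted p = 0.0725). EIF2AK1 (HRI) passed in THP1 alone (-0.11 ± 0.034), and EIF2AK4 (GCN2) in neither line.

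The factors of scanning and start codon choice fell in Molm13 with few exceptions: 5 of 7 fell and 2 rose, and in THP1 2 fell and 1 rose. EIF1 and EIF1B, close copies that hold the scanning ribosome open, went apart in Molm13. EIF1 rose from 259 and 261 to 285 and 282 CPM (0.13 ± 0.027), and EIF1B fell from 31.3 and 31.3 to 20.6 and 20.2 CPM (-0.62 ± 0.069). In THP1 EIF1 rose from 248 and 244 to 294 and 298 CPM (0.26 ± 0.032) and EIF1B did not pass (-0.10 ± 0.064). The difference of EIF1 was 0.15 ± 0.042 and was lost without Molm13 shCtrl replicate 2, shPRMT9 replicate 1 or shPRMT9 replicate 2 (adjusted p = 0.0689, 0.0563 and 0.127) and without THP1 shCtrl replicate 2 or shPRMT9 replicate 2 (0.0679 and 0.0709). EIF1AX fell in both lines (-0.56 ± 0.044 and -0.15 ± 0.041), as did EIF5, the GTPase activator of eIF2 (-0.44 ± 0.027 and -0.20 ± 0.031). EIF5B, which joins the ribosomal subunits, fell in Molm13 (-0.29 ± 0.025), and EIF6, which keeps free large subunits apart, rose there (0.14 ± 0.056). EIF1AY is counted among the members, but its level is not given.

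The genes that end translation and recycle ribosomes, a list outside the members, were lower in Molm13 as well. All 8 fell in Molm13 (median -0.52), where 33.5% of all genes tested fell. In THP1 1 rose and 2 fell (median -0.0023), beside 19.0% and 18.6% of all genes tested. ETF1, the release factor that reads stop codons, went from 198 and 201 to 125 and 122 CPM in Molm13 (-0.69 ± 0.032) and from 260 and 250 to 297 and 284 CPM in THP1 (0.19 ± 0.034). GSPT1, its GTPase partner, fell by 0.80 ± 0.027 and by 0.14 ± 0.031. All 8 differences passed, and all were above 0, beside 22.8% of all genes tested that passed above 0.

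Of 15 genes of mTORC1 and S6 kinase signalling, which act on the TOP mRNAs and on the eIF4E binding proteins, 5 rose and 6 fell in Molm13. In THP1 4 rose and 5 fell. The shares over all genes tested were 33.4% up and 33.5% down in Molm13, and 19.0% and 18.6% in THP1. The inhibitors DDIT4 and DEPTOR rose in Molm13 (1.37 ± 0.024 and 1.26 ± 0.11) and fell in THP1 (-0.21 ± 0.079 and -0.84 ± 0.12). SESN1, an inhibitor acting upstream of mTORC1, rose and fell likewise (0.36 ± 0.039 and -0.29 ± 0.075). SESN2, of the same family, went the other way (-0.24 ± 0.073 and 0.41 ± 0.091), and TSC1, a subunit of the complex that restrains mTORC1, rose in both lines (0.34 ± 0.050 and 0.21 ± 0.050). PDCD4, which blocks eIF4A, rose in Molm13 and fell in THP1 (1.05 ± 0.028 and -0.53 ± 0.039). MTOR, the kinase, fell in Molm13 from 113 and 118 to 57.6 and 59.4 CPM (-0.98 ± 0.042), and its THP1 value was 0.069 ± 0.035 (adjusted p = 0.129). In the branch that reverses eIF2 phosphorylation and answers to ATF4, 2 of 8 genes rose and 4 fell in Molm13, and 4 rose in THP1. The same shares over all genes apply to these counts. PPP1R15A, the stress-induced phosphatase subunit, rose in both (1.52 ± 0.061 and 0.83 ± 0.075). Its constitutive counterpart PPP1R15B fell in Molm13 (-1.33 ± 0.038). ASNS, an ATF4 target, fell in Molm13 and rose in THP1 (-1.63 ± 0.054 and 0.33 ± 0.071). ATF4 itself fell in Molm13 (-0.32 ± 0.028) and did not pass in THP1 (-0.058 ± 0.038). DDIT3, on the same list, rose in both lines (1.04 ± 0.076 and 0.42 ± 0.083).

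Set side by side over the 65 members tested in both lines, 26 were called in both: 5 rose in both, 10 fell in both and 11 went in opposite directions. The opposite calls came to 16.9% of these members, where 11.3% of the 13476 genes tested in both lines did so, and calls in the same direction came to 23.1% against 22.3%. Another 27 were called in Molm13 alone and 3 in THP1 alone. The 11 were EEF1A1, EEF1A2, EEF1B2, EEF2, EIF3E, EIF3L and PABPC4, which rose in Molm13, and EEF1E1, EIF2B3, EIF2S2 and EIF4G1, which fell there. The median size of the log2 fold change was 0.27 in Molm13 and 0.11 in THP1, beside 0.38 and 0.17 over all genes. Across the members the log2 fold changes of the 2 lines had a Pearson r of -0.065, against 0.29 across all genes. Of 66 members tested for the difference between lines, 30 passed above 0 and 15 below (22.8% and 19.4% of 19288 genes).

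**Figure D4:**
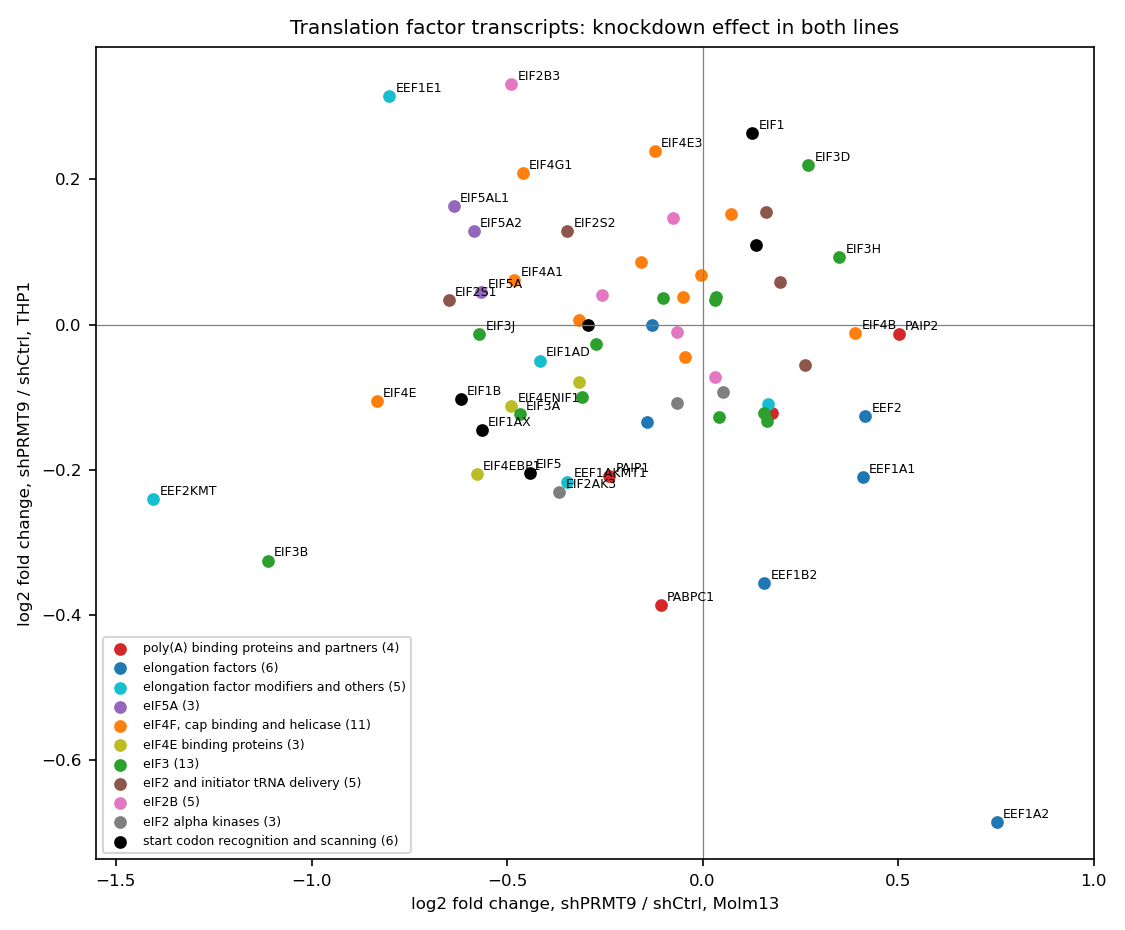
Log2 fold change (shPRMT9 over shCtrl) in Molm13 (horizontal axis) against THP1 (vertical axis) for 64 members, coloured by role. EEF1A2, EEF1A1, EEF2 and EEF1B2 lie at the lower right, EEF1E1, EIF2B3 and EIF4G1 at the upper left, and EIF3B and EEF2KMT at the lower left.

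Levels in the shCtrl libraries also differed between the lines, but the 2 tables do not count near-identical copies alike. Rows of 136 pseudogenes of these factors held 0.186% to 0.223% of counts in the Molm13 libraries and 0.00627% to 0.00671% in those of THP1. For EEF1A1 the pseudogene rows held 31.6% of the summed counts of gene and copies in Molm13 and 1.57% in THP1, and for EIF4E 42.8% and 0.043%. Between the shCtrl groups 29 members were higher in THP1 and 31 lower (40.1% and 42.7% of all genes). Adding the copies to their parent genes moved several of these contrasts: EEF1A1 from 1.23 to 0.72, EIF4E from 1.66 to 0.82, EEF1B2 from 0.69 to -0.11 and EIF3F from 0.17 to -0.73 on the log2 scale, THP1 over Molm13.

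EEF2 had no copy among these 136 rows. The rows were picked by EIF and EEF names, so copies of the poly(A) genes could not be among them. The contrast of EEF2, THP1 over Molm13, was -1.38 ± 0.023. Those of the poly(A) genes were 1.88 ± 0.026 for PABPC4, 1.57 ± 0.054 for PAIP1, -0.38 ± 0.023 for PABPC1 and -0.26 ± 0.038 for PAIP2. PABPC3, an intronless copy of PABPC1 that is not a member, was at 493 and 513 CPM in the shCtrl libraries of Molm13 and at 1.09 and 0.828 CPM in those of THP1, and PAIP1 shares 22.3% of its 50-base words with other genes, so these contrasts carry the same limit. EIF2S3L, the intronless copy of EIF2S3, was at 162 to 179 CPM in Molm13 and at most 0.081 CPM in THP1. Per length, the 5 highest members by mean RPKM over all libraries were EEF2 (1294), PABPC1 (625), EEF1A1 (420), EIF4G2 (175) and EIF3A (121). Within each line the knockdown effects moved little when copies were added: EEF1A1 from 0.41 to 0.45 and EIF4E from -0.83 to -0.92 in Molm13, but EIF4A1 from -0.48 to -0.18. EEF1G had no counts in any library, and 99.9% of its exon length overlaps another gene on the same strand.

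**Figure D5:**
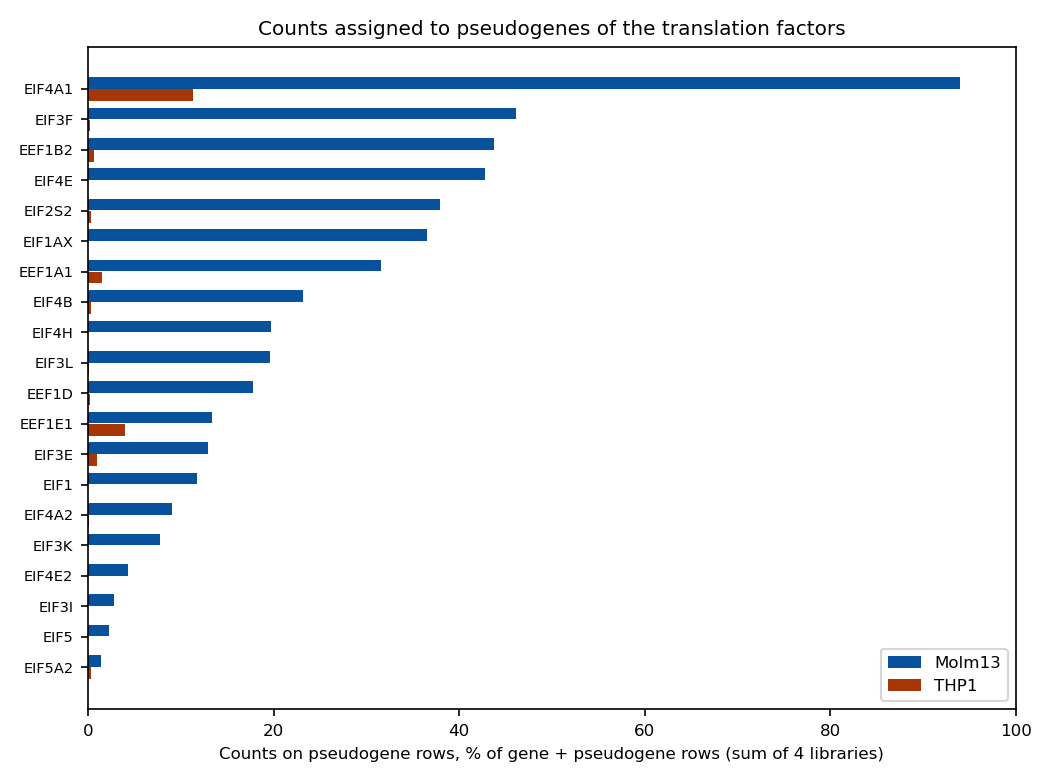
Counts on pseudogene rows as a percentage of the counts of the parent gene and its pseudogenes together (sum of 4 libraries per line), for 20 members. The Molm13 bars reach 93.9% for EIF4A1 and exceed the THP1 bars for every parent shown.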

How the data were processed

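Polyadenylated RNA from Molm13 and THP1 cells was sequenced in 8 libraries, 2 per group. The authors deposited 1 table of read counts per line, whole numbers per gene without normalization; the submitters' processing notes name TopHat2 2.0.8, HTSeq 0.11.2, edgeR 3.30.3 and the build hg38, while the annotation release, strand setting and treatment of multi-mapped reads are not given in the sources used here. Libraries held 18720950 to 27356870 counts.

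Counts were filtered with filterByExpr, scaled by TMM and tested gene by gene with edgeR 4.0.16 (R 4.3.3), using the quasi-likelihood test and Benjamini-Hochberg adjustment over all genes tested. Each line was fitted alone; the difference between lines and the shCtrl contrast came from 1 fit of all 8 libraries. SE is the absolute log2 fold change over the square root of F. A call is an adjusted p below 0.05. CPM is TMM-scaled within a line, and RPKM uses the deposited exon lengths. Exon overlaps and shared 50-base words came from GENCODE 29, where 68 of 72 members have the files' start and end. The tests were checked on simulated counts. Limma 3.58.1 (voom) and DESeq2 1.42.0 served as alternatives.

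Members and lists were chosen with earlier results of these data known. Named were the poly(A) genes, per line the 6 largest rises and falls among members called, not overlapping and averaging at least 20 counts, the 5 smallest adjusted p for the difference, opposite calls with a fold above 1.5, the 5 highest RPKM means and close copies of these; further members are given to complete their role group, chosen after their values were seen. Replicate numbers were not treated as pairs. Deviations of same-numbered libraries correlated at -0.087 in Molm13 and -0.015 in THP1, which cannot tell whether those libraries were handled together.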

Additional observations from a re-analysis of the deposited data

Results flagged for a closer look

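The knockdown effect differed between the lines (adjusted p below 0.05 for THP1 minus Molm13, edgeR quasi-likelihood test over all genes) for 23 of the 30 named members. Below 0, so lower in THP1 relative to Molm13, were EEF1A2 (-1.42), EEF1A1 (-0.606), EEF2 (-0.528), PAIP2 (-0.502), EEF1B2 (-0.501), EIF4B (-0.389), PABPC4 (-0.287), PABPC1 (-0.267) and EIF3H (-0.244). Above 0 were EEF2KMT (1.18), EEF1E1 (1.13), EIF2B3 (0.834), EIF5AL1 (0.813), EIF3B (0.8), EIF4E (0.741), EIF5A2 (0.726), EIF2S1 (0.696), EIF4G1 (0.682), EIF5A (0.623), EIF1B (0.528), EIF3A (0.358), EIF4E2 (0.256) and EIF1 (0.15). The named members were picked in part by this same test and by the size of their changes. Their number is therefore not comparable with the 42.2% of all genes tested that passed. Over all 66 members tested, 30 passed above 0 and 15 below.

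The rows of pseudogenes, which the report's comparisons leave out, held a mean of 0.22% of counts in Molm13 shPRMT9 and 0.188% in Molm13 shCtrl.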

How the results depend on the processing

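No call of a named member changed direction. Values that did not pass changed sign for EIF4G2 in Molm13 (upper quartile), for EIF2S1, EIF4E3 and PAIP2 in THP1 (a library left out) and for the differences of EIF2S3, EIF4G2 and PAIP1, and none of these passed with the changed sign. The counts of members called higher and lower and of DEGs stayed within 1.5 times their reported values under all alternatives for the number of calls, except that a fold change above 2 left 2 DEGs in Molm13 and 0 in THP1 (which had 1). DESeq2 gave the fewest calls: 14 rose and 31 fell in Molm13, 7 and 16 in THP1. Adding pseudogene counts to their parents, chosen after seeing the data, moved the members' median difference to 0.10 and the median shCtrl contrast from -0.036 to -0.11.

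Medians moved by more than the replicate spread (0.023) under other scalings. The Molm13 median was -0.078 with upper-quartile scaling and the THP1 median -0.054 with library size alone. Over all genes these 2 medians were 0.048 and -0.028. The median difference was 0.12 with DESeq2's size factors, 0.10 with library size alone and 0.085 with upper quartile. Over all genes it was 0.0043, -0.015 and -0.029 with these scalings, and 0.029 with TMM. Without 1 replicate the Molm13 median ranged from -0.16 to -0.092 and the THP1 median from -0.055 to -0.034, and the median difference, 0.145, ranged from 0.077 (without THP1 shPRMT9 replicate 2) to 0.14. The causes were not tested.

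With the replicate number as a block, 19 members rose and 35 fell in Molm13 and 10 rose and 18 fell in THP1, so the pairing of numbers changed little. With 2 libraries per group, members at a few CPM (EEF1A2, EIF5A2, EIF4E3, EEF2KMT) have the widest errors.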
